A study of Mus musculus with 15 samples.

Results

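The genes described here are 61 mouse genes whose names place them among the interferon-induced genes and the genes of antigen presentation, measured in cultured myotubes that carried 1 of 4 isoforms of the coactivator PGC-1a. They were chosen by name alone: the Ifi, Ifit, Oas, Gbp, Irf, H2, Isg and Mx families, with Stat2, Tap1, Tap2, Psmb8, Psmb9 and Psmb10. A gene counted only where a row of the table carried its symbol and no other. The 61 genes were members of 14860 genes with such a row, and each had 1 row. Another 38 matching symbols appeared only in rows that list several symbols, so no value is given for them. The classical class I heavy chains H2-K1 and H2-D1 were among these, as were Ifit3 and Gbp4.

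The study asked how the 4 isoforms of PGC-1a, made from 1 gene, change gene expression in muscle cells. Mouse primary myoblasts, the precursor cells of muscle grown from tissue, were fused into myotubes in medium with 5% horse serum. At 48 h of differentiation they were given adenovirus (multiplicity of infection 100), and RNA was taken about 60 h later and read on whole-transcript Affymetrix arrays. The controls received virus for green fluorescent protein (GFP) alone. The other groups received GFP together with 1 of the isoforms PGC-1a1 to PGC-1a4, with GFP and the isoform under separate promoters. Each of the 5 groups had 3 arrays. All groups therefore carried an adenovirus and GFP, and no untransduced culture was analysed here, so a response to the virus itself was not measured. The labels do not say whether the arrays of a group came from separate cultures, so p-values measure only the spread between these arrays. On the PGC-1a4 samples 1 label field names isoform 1, and the titles, which name PGC-1a4, were followed.

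As background, type I interferons bind their receptor and activate a complex that holds Stat2 and Irf9 and switches on genes with an interferon-stimulated response element. Interferon gamma acts in part through Irf1, and raises the machinery that cuts proteins into peptides, carries them into the endoplasmic reticulum and loads them on MHC molecules. Resting muscle fibres show little MHC on their surface, and MHC class I on fibres is a hallmark of inflammatory myopathies. PGC-1a1 is the full-length coactivator known for mitochondrial gene expression, while PGC-1a2, PGC-1a3 and PGC-1a4 start from an alternative promoter and PGC-1a4 is known for muscle growth.

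The values are log2 signals, and array medians ran from 5.48 to 5.66. The row for Ppargc1a, the gene of PGC-1a, was higher than in GFP by 4.08 ± 0.16 (log2, SE) with PGC-1a1 and by 1.93 ± 0.16 with PGC-1a4, with adjusted p of 6.191e-08 and 8.144e-06. With PGC-1a2 and PGC-1a3 its differences were 0.35 and 0.42 with adjusted p of 0.218 and 0.137, so the gene's single row does not by itself check those labels. All 10 measured myotube markers lay above the median of every array. So did 5 of 6 myoblast, 3 of 9 fibroblast and 1 of 5 adipocyte markers, so the lists do not show that the cultures held myotubes alone. None of the 11 leukocyte and macrophage, 5 dendritic and B cell, 6 T and NK cell or 9 endothelial markers lay above the median of every array. GFP replicate 2 stood apart: it correlated with the other GFP arrays at 0.982 and 0.983 across rows, against 0.991 between those 2 arrays. Its members below the median row were 0.27 higher than in the other GFP arrays, beside 0.13 for all rows below that median.

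The promoter windows of 4 members on which the results below turn are shown here, as RefSeq lists them on build GRCm38.p6, from 250 bases before to 50 bases after the transcription start. Capitals mark matches to motifs on either strand. In Ifi30 (chr8:70766614-70766913, minus strand) they mark GTCACGTG, an extended E-box. In Psmb10 (chr8:105938343-105938642, minus strand) they mark CACGTG, the E-box within that motif, and AAGGTCA. The latter is only the core of the element bound by the nuclear receptor ERR, a partner of PGC-1a, and a longer element was not searched. In Ifit1 (chr19:34640639-34640938, plus strand) and Stat2 (chr10:128270248-128270547, plus strand) the capitals mark the core of the interferon-stimulated response element. That core is a pair of GAAA blocks with any 2 bases between them, here on the opposite strand.
Ifi30: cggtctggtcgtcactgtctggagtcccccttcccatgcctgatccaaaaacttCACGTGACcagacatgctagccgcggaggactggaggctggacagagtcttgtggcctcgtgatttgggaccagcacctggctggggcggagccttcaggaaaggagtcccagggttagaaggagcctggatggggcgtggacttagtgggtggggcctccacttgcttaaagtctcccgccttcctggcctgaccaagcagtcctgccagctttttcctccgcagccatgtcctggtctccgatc
Psmb10: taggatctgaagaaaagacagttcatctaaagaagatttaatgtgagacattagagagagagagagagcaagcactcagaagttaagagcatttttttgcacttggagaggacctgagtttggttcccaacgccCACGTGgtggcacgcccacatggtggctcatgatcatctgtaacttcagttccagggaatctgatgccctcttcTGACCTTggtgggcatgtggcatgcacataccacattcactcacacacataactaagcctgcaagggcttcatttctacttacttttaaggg
Ifit1: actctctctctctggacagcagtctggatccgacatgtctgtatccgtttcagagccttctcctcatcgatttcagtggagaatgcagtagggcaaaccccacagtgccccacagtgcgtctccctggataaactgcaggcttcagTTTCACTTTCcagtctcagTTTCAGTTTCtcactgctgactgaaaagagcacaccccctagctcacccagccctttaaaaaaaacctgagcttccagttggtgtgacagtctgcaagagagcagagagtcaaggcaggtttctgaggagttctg
Stat2: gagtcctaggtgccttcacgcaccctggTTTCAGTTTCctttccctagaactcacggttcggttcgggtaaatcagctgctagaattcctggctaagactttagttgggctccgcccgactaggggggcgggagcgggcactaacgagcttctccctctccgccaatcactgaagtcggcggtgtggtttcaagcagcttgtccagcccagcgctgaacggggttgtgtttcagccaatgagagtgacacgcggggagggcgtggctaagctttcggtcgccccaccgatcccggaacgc
The matches began at position -196 from the start in Ifi30, at -116 and -42 in Psmb10, at -104 and -85 in Ifit1 and at -222 in Stat2. RefSeq windows were listed for 50 of the 61 members. The response element core was present for 10 of the 50, which were Gbp2, Gbp3, Gbp5, Gbp7, Ifi203, Ifi205, Ifit1, Ifitm3, Irf2 and Stat2, while 3.99% of the 27025 genes with a window hold it (3.44% of the 32851 windows). Of those 10 members Ifit1, Ifitm3, Irf2 and Stat2 passed the F-test described below. TTCNNNGAA, the gamma-activated sequence, was present for 13 of the 50 and for 9.55% of all genes (8.3% of windows). AAGGTCA was found for 3 (5.38% of all genes, 4.72% of windows), CACGTG for 2 (8.09% and 7.15%) and GTCACGTG for 1 (2.55% and 2.25%). GTCACGTG contains CACGTG, so each of its matches is counted under both, and CACGTG and TTCNNNGAA read the same on both strands. The motifs were chosen with results known, and a match describes the sequence and no binding.

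Most of the 61 genes gave low signals. The mean of 19 members lay above 5.54, the median over all rows of the table, and 15 members were above their array's median on all 15 arrays. Another 40 were above it on none, and 16 were below the lower quartile on every array. Signals of different probes cannot be ranked as amounts of RNA, so these positions only mark where a change could be read. All 7 members of the oligoadenylate synthetase (OAS) family, all 4 guanylate-binding GBP genes and both Mx GTPases lay below their array's median on all 15 arrays. All 10 non-classical class I genes did too, as did the class II chains H2-Aa, H2-Ab1 and H2-Ea and the class II chaperone subunit H2-Oa. The members above the median row included H2-DMa, Ifi30, Psmb10, Tap1, Tap2, Irf2, Irf3, Irf9, Stat2, Ifitm3, Isg20 and Isg20l2.

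A gene was called changed at an adjusted p under 0.05 in limma, adjusted over all 23332 rows. Where alternatives that lost a call are named below, the list need not be complete. In the F-test over the 5 groups 16 of the 61 members were called, or 26.2%. Beside them stood 31.3% of all rows and 41.1% of the 14860 genes read by 1 row each. The share followed the signal: 12 of the 19 members above the median row were called, or 63.2%, beside 62.2% of genes there, and 4 of the 42 members below it, or 9.52%, beside 11.6%. Both shares lay close to their background. The calls included 3 more members that passed in 1 comparison but not in the F-test (Mx1, Ifi203 and Ifi202b), and 42 members were called in no comparison.

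Against GFP, PGC-1a1 changed 4 members (1 higher, 3 lower), beside 6.84% of all rows (4.44% higher, 2.4% lower). PGC-1a2 changed 9 (4 higher, 5 lower), beside 9.33% (4.56% and 4.77%). PGC-1a3 changed 6 (5 higher, 1 lower), beside 7.99% (5.02% and 2.97%). PGC-1a4 changed 10 (4 higher, 6 lower), beside 14.3% (7.05% and 7.22%). As shares of the members these were 6.56%, 14.8%, 9.84% and 16.4%, beside 9.12%, 12.7%, 10.9% and 19.1% of the 14860 genes read by 1 row each, as the members were. Of the 19 members above the median row, 3, 6, 4 and 9 were called, beside 14.6%, 19.4%, 16.8% and 29.4% of genes there. The median difference over the members was -0.02, -0.08, -0.02 and 0.01, beside -0.03, -0.03, -0.02 and -0.02 over all rows. The 4 comparisons share the GFP arrays. Median centring of the arrays gave 2 higher and 0 lower for PGC-1a1, 2 and 1 for PGC-1a2, 4 and 0 for PGC-1a3 and 4 and 3 for PGC-1a4, so the split between directions depended on the scaling. The count for PGC-1a1 fell to 2 without GFP replicate 1, GFP replicate 3 or PGC-1a1 replicate 2 and to 1 without PGC-1a1 replicate 3. That for PGC-1a2 fell to 5 without GFP replicate 1 or 3 and to 4 without PGC-1a2 replicate 2 or 3, and that for PGC-1a3 fell to 2 without PGC-1a3 replicate 1. Without GFP replicate 2, the array that stood apart, the 4 counts were 4, 8, 5 and 9.

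Comparisons between isoforms leave the GFP arrays out of the means compared. The GFP arrays still enter the estimate of the spread, which all 15 arrays share. Leaving out a GFP array is not reported for these comparisons. PGC-1a1 differed from PGC-1a2 in 10 members (background 19.2%), from PGC-1a3 in 9 (14%) and from PGC-1a4 in 5 (9.08%). PGC-1a2 differed from PGC-1a3 in 7 (9.27%) and from PGC-1a4 in 13 (25.2%), and PGC-1a3 differed from PGC-1a4 in 12 (23%). These backgrounds are shares of all rows. As shares of the members the counts were 16.4%, 14.8%, 8.2%, 11.5%, 21.3% and 19.7% in that order. Of the 14860 genes read by 1 row each, 25.3%, 18.8%, 12%, 12.3%, 33.1% and 30.4% were called, each above the share of the members. At a like signal the order was the reverse. Of the 19 members above the median row, 8, 6, 5, 5, 11 and 11 were called. The shares of genes there were lower, at 38.4%, 29%, 19.1%, 18.7%, 49.3% and 45.6%, and the gap was not tested. The count for PGC-1a1 and PGC-1a4 was 2 without any one of PGC-1a1 replicates 1, 2 and 3 or PGC-1a4 replicates 1 and 2, and 1 without PGC-1a4 replicate 3. That for PGC-1a2 and PGC-1a3 was 4 without PGC-1a2 replicate 2 and 3 without PGC-1a3 replicate 1, and that for PGC-1a1 and PGC-1a2 was 6 without PGC-1a1 replicate 2 or PGC-1a2 replicate 3.

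**Figure D1:**
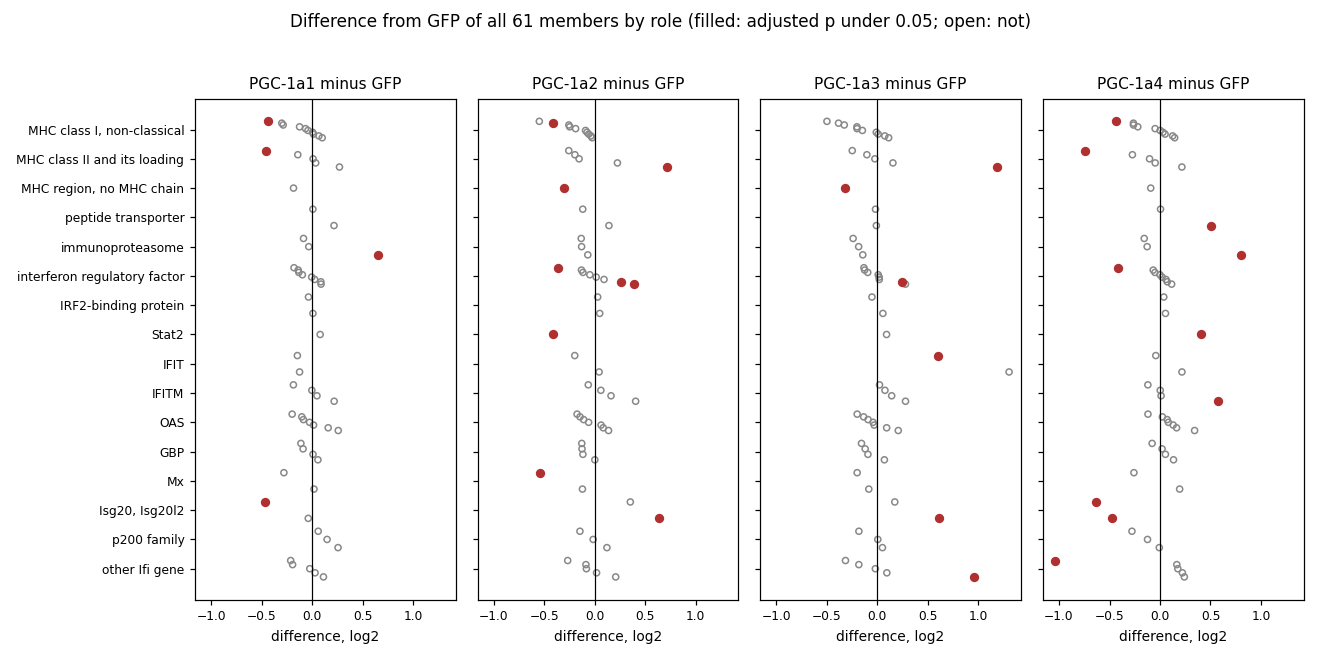
Difference from GFP (log2, horizontal axis) of each of the 61 members with each isoform, in rows by role; filled points had an adjusted p under 0.05 and open points did not. The filled points number 4, 9, 6 and 10 from left to right, and most open points lie near 0.

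Of the 5 members of the class II pathway and its loading, H2-DMa was called, and so was Ifi30, which acts before loading. Ifi30 (also known as GILT), a lysosomal reductase that opens disulfide bonds of proteins before they are loaded on class II, had the largest difference among the members. Its signals were 8.56, 8.41 and 8.63 in GFP, 8.59, 8.22 and 8.21 with PGC-1a1, and 8.60, 8.79 and 8.83 with PGC-1a2. They were 9.56, 9.75 and 9.16 with PGC-1a3 and 7.71, 7.48 and 7.28 with PGC-1a4. Every PGC-1a3 array was above, and every PGC-1a4 array below, all arrays of the other groups. Ifi30 rose 1.94-fold with PGC-1a3 (0.96 ± 0.16 on the log2 scale, SE, adjusted p = 0.004028) and fell by 1.04 ± 0.16 with PGC-1a4 (adjusted p = 0.0008347). PGC-1a3 and PGC-1a4 differed by 2.00 (adjusted p = 3.271e-06), and with PGC-1a1 and PGC-1a2 the differences from GFP were -0.19 and 0.21 (adjusted p = 0.608 and 0.531). The rise with PGC-1a3 had an adjusted p of 0.101 when only those 6 arrays were fitted.

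H2-DMa, the alpha chain of the DM heterodimer that exchanges peptides on class II molecules, spanned nearly the same range. It read 6.73, 6.67 and 6.84 in GFP, 6.43, 6.19 and 6.24 with PGC-1a1 and 7.53, 7.52 and 7.33 with PGC-1a2. It read 7.97, 8.16 and 7.69 with PGC-1a3 and 6.16, 6.01 and 5.86 with PGC-1a4. No groups overlapped, in the order PGC-1a3, PGC-1a2, GFP, PGC-1a1 and PGC-1a4. H2-DMa rose 2.28-fold with PGC-1a3 (1.19 ± 0.12, adjusted p = 0.0002481) and 1.64-fold with PGC-1a2 (0.71 ± 0.12, adjusted p = 0.003386), and fell by 0.74 ± 0.12 with PGC-1a4 (adjusted p = 0.001328) and by 0.46 ± 0.12 with PGC-1a1 (adjusted p = 0.0385). The lowest neighbours, PGC-1a1 and PGC-1a4, differed by 0.28 (95% interval 0.01 to 0.54, adjusted p = 0.21). The highest neighbours, PGC-1a3 and PGC-1a2, differed by 0.48 (adjusted p = 0.02892). That call was lost under median centring and when only those groups were fitted (0.0719 and 0.119). It was also lost without PGC-1a2 replicate 1, 2 or 3 or PGC-1a3 replicate 1 or 2 (0.0551, 0.0624, 0.108, 0.0942 and 0.12). The fall with PGC-1a1 was not called without GFP replicate 1, 2 or 3 or PGC-1a1 replicate 2 or 3 (adjusted p = 0.0842, 0.0552, 0.134, 0.142 and 0.123), and the rise with PGC-1a3 had an adjusted p of 0.054 when only the 6 arrays of PGC-1a3 and GFP were fitted. The fall was also not called under median centring or when only PGC-1a1 and GFP were fitted (adjusted p = 0.154 and 0.0967). The class II chains H2-Aa, H2-Ab1 and H2-Ea and H2-Oa, a subunit of the inhibitor of DM, were called in none of the 10 comparisons, and all gave dim signals. The DM beta chains were listed only in rows of several symbols and are not valued here.

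Macrophages and dendritic cells express both genes strongly, so their markers are given beside them. None of the 11 leukocyte and macrophage markers was above the median of every array and 9 were above it on none. Their mean signal per array ran from 4.40 to 4.63 in GFP, 4.29 to 4.53 with PGC-1a1, 4.47 to 4.57 with PGC-1a2, 4.46 to 4.54 with PGC-1a3 and 4.28 to 4.48 with PGC-1a4. The defining genes Ptprc (CD45) and Adgre1 averaged 3.48 and 3.32. In this list 3 genes, named after their values were seen, did change against GFP. Cd68, a lysosomal protein, was 0.59 higher with PGC-1a3 (adjusted p = 0.0172). Laptm5, another lysosomal protein, was lower by 0.68 with PGC-1a1 and by 0.55 with PGC-1a4 and was 0.53 higher with PGC-1a2 (adjusted p = 0.0133, 0.0224 and 0.0392). Itgam, an integrin of myeloid cells, was lower by 0.33 with PGC-1a1 and by 0.37 with PGC-1a4 (adjusted p = 0.0316 and 0.00978). These genes moved partly with Ifi30 and H2-DMa. Their part in those results was not tested, and in bulk RNA fewer cells of a type cannot be told apart from less RNA per cell.

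**Figure D2:**
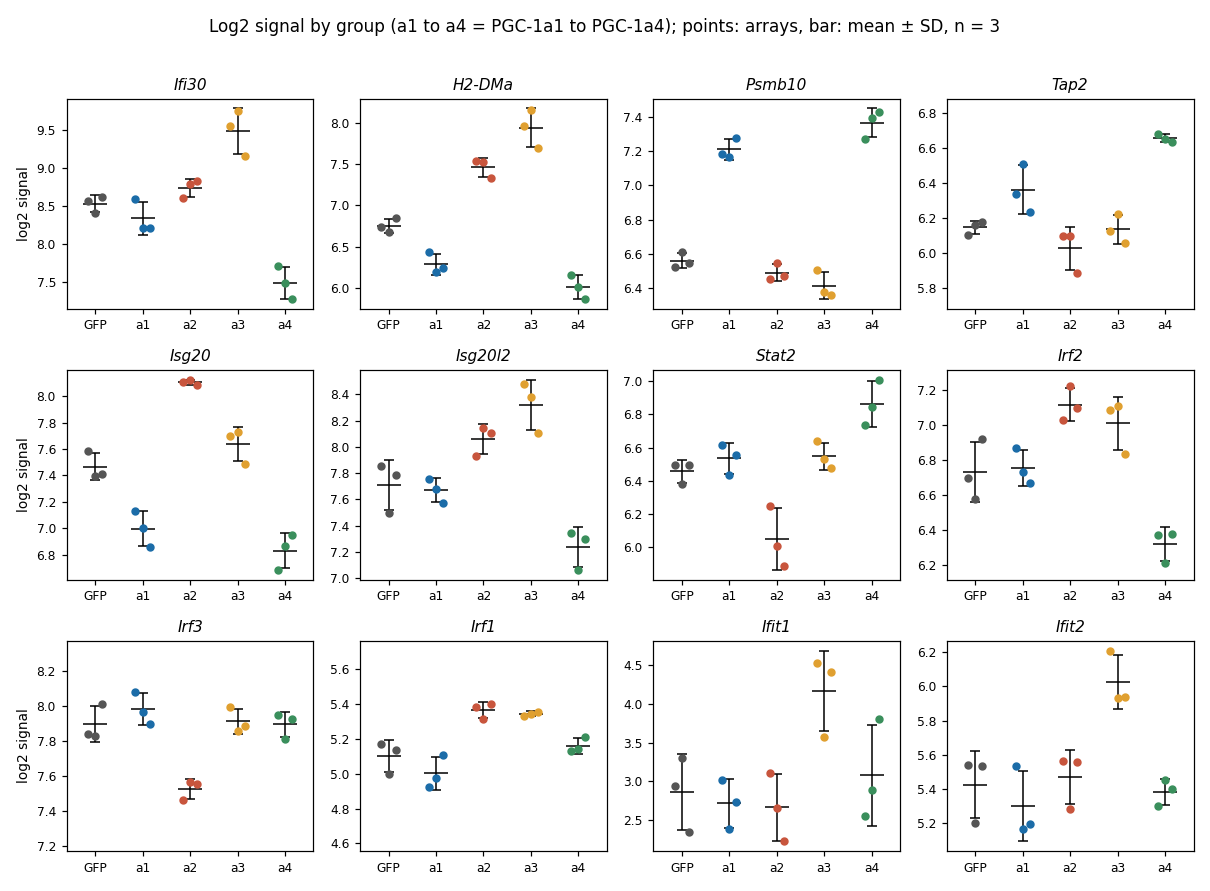
Log2 signal of 12 members on each array (points), with the mean and SD of the 3 arrays per group; a1 to a4 stand for PGC-1a1 to PGC-1a4, and each panel has its own vertical scale that does not start at 0. Ifi30 and H2-DMa are highest with PGC-1a3 and lowest with PGC-1a4, Psmb10 is high with PGC-1a1 and PGC-1a4, and Ifit1 and Ifit2 are high with PGC-1a3.

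Psmb10 of the immunoproteasome and Tap2 of the peptide transporter, which serve the class I pathway, rose with PGC-1a4. Psmb10, a catalytic subunit that replaces a standard one in the immunoproteasome, read 6.52, 6.61 and 6.55 in GFP and 7.18, 7.17 and 7.28 with PGC-1a1. It read 6.45, 6.55 and 6.47 with PGC-1a2, 6.51, 6.38 and 6.36 with PGC-1a3, and 7.27, 7.39 and 7.43 with PGC-1a4. All 6 arrays of PGC-1a1 and PGC-1a4 were above the other 9. Psmb10 rose 1.57-fold with PGC-1a1 (0.65 ± 0.07, adjusted p = 9.004e-05) and 1.75-fold with PGC-1a4 (0.81 ± 0.07, adjusted p = 8.725e-06), and those groups differed from each other by 0.16 (95% interval 0.01 to 0.30 in favour of PGC-1a4, adjusted p = 0.194). Both rises were called under all alternatives tried. These are also the groups in which the Ppargc1a row was higher than in GFP, and a link between the 2 rows was not tested.

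The other immunoproteasome subunits did not follow. With PGC-1a4 the difference from GFP was -0.13 for Psmb8 (95% interval -0.49 to 0.24) and -0.16 for Psmb9 (-0.47 to 0.16), and neither was called in any comparison. Psmb8 was below its array's median on all 15 arrays, as was Psmb9. Of 10 measured subunits of the standard proteasome core, 0 were called with PGC-1a1 and 1 with PGC-1a4, Psma7, which fell by 0.26 (adjusted p = 0.0319) and was not called without GFP replicate 1 or 3 or PGC-1a4 replicate 1 or 3 (adjusted p = 0.0693, 0.105, 0.093 and 0.122). At an unadjusted p under 0.05, 2 of the 10 passed with PGC-1a1.

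Tap2 and Tap1 form the transporter that carries peptides to class I. Tap2 read 6.10, 6.16 and 6.18 in GFP, 6.34, 6.51 and 6.24 with PGC-1a1 and 6.10, 6.10 and 5.89 with PGC-1a2. It read 6.13, 6.22 and 6.06 with PGC-1a3 and 6.68, 6.66 and 6.64 with PGC-1a4, where all arrays lay above those of the other groups. It rose 1.42-fold with PGC-1a4 (0.51 ± 0.08, adjusted p = 0.001255). Tap1 differed from GFP by 0.01 with PGC-1a4 (95% interval -0.20 to 0.22) and was called in no comparison. In the RefSeq gene order on chromosome 17, Psmb9, Tap1, Psmb8 and Tap2 follow each other, with H2-DMa close by, so Tap2 and H2-DMa changed while the 3 members between them were not called. H2-Ke6, a gene of the MHC region that encodes a steroid dehydrogenase and no MHC chain, read 8.65, 8.57 and 8.68 in GFP, 8.42, 8.36 and 8.21 with PGC-1a2 and 8.28, 8.35 and 8.31 with PGC-1a3. It read 8.48, 8.43 and 8.44 with PGC-1a1 and 8.52, 8.50 and 8.61 with PGC-1a4. It fell by 0.31 with PGC-1a2 (adjusted p = 0.01085) and by 0.32 with PGC-1a3 (adjusted p = 0.01092), with no overlap with GFP, and the latter call was lost without PGC-1a3 replicate 1 (adjusted p = 0.0508). Both calls were lost under median centring (adjusted p = 0.0625 and 0.0616) and when only the 2 groups compared were fitted (0.164 and 0.152). The non-classical class I gene H2-M10.6 was lower by 0.43, 0.41 and 0.43 with PGC-1a1, PGC-1a2 and PGC-1a4 (adjusted p = 0.04018, 0.04168 and 0.02415). It read 2.78, 2.35 and 2.49 in GFP, 2.28, 1.96 and 2.06 with PGC-1a1 and 2.01, 2.16 and 2.20 with PGC-1a2. It read 2.38, 2.34 and 2.29 with PGC-1a3 and 2.23, 2.02 and 2.06 with PGC-1a4, so that only the PGC-1a3 arrays overlapped those of GFP, and all 15 arrays lay below their lower quartile. Each missed the threshold once GFP replicate 1 was left out (adjusted p = 0.126, 0.129 and 0.0882), the first 2 also without GFP replicate 3 (0.0807 and 0.0834), and further ones without PGC-1a1 replicate 2 or 3 (0.16 and 0.124), PGC-1a2 replicate 1, 2 or 3 (0.135, 0.0958 and 0.0745) and PGC-1a4 replicate 2 or 3 (0.0852 and 0.0813).

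Among the transcription factors, changes against GFP were under 1.5-fold. Stat2, a signal transducer of the type I interferon response, read 6.50, 6.38 and 6.50 in GFP, 6.25, 6.01 and 5.88 with PGC-1a2 and 6.74, 6.85 and 7.01 with PGC-1a4. It read 6.62, 6.43 and 6.56 with PGC-1a1 and 6.64, 6.53 and 6.48 with PGC-1a3. Its PGC-1a2 arrays lay below, and its PGC-1a4 arrays above, all GFP arrays. Stat2 fell by 0.41 ± 0.10 with PGC-1a2 (adjusted p = 0.02362), rose by 0.41 ± 0.10 with PGC-1a4 (adjusted p = 0.01653), and differed by 0.82 between those isoforms (adjusted p = 6.305e-05, called under all alternatives). The first call was lost without GFP replicate 1 or 3 or PGC-1a2 replicate 2 or 3 (adjusted p = 0.0687, 0.0809, 0.0866 and 0.103), the second without GFP replicate 2 or PGC-1a4 replicate 3 (0.0508 and 0.0748). Fitting only the 2 groups compared lost both (0.155 and 0.086), and median centring lost the first (0.0738). Stat2 was also 0.32 higher with PGC-1a4 than with PGC-1a3 (adjusted p = 0.03825), a call lost without PGC-1a3 or PGC-1a4 replicate 2 or 3 (0.1, 0.112, 0.0793 and 0.157). Median centring and the fit of only those 2 groups lost this call too (0.0623 and 0.0782).

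Irf2, which competes with Irf1 for the same sites and mostly represses them, moved the other way. It read 6.70, 6.58 and 6.92 in GFP, 7.03, 7.22 and 7.10 with PGC-1a2 and 6.37, 6.21 and 6.38 with PGC-1a4, and these groups did not overlap. It read 6.87, 6.73 and 6.67 with PGC-1a1 and 7.08, 7.11 and 6.84 with PGC-1a3, both overlapping GFP. It rose by 0.39 ± 0.10 with PGC-1a2 (adjusted p = 0.0385) and fell by 0.41 ± 0.10 with PGC-1a4 (adjusted p = 0.01952). The isoforms differed by 0.80 (adjusted p = 0.0001042, called under all alternatives). The rise was lost without GFP replicate 1 or 2 or any PGC-1a2 array (adjusted p = 0.098, 0.115, 0.053, 0.148 and 0.0959), and the fall without GFP replicate 3 or PGC-1a4 replicate 2 (0.0815 and 0.0778). Both were lost under median centring (0.0808 and 0.0851) and when only the 2 groups compared were fitted (0.173 and 0.118). Blocking on the replicate number lost the rise (0.062).

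Irf3, the factor that sensors of viral nucleic acid activate, changed with PGC-1a2 alone among the 4 tests against GFP. It read 7.84, 7.83 and 8.02 in GFP and 7.46, 7.57 and 7.55 with PGC-1a2, and 8.08, 7.97 and 7.90 with PGC-1a1. It read 7.99, 7.86 and 7.89 with PGC-1a3 and 7.95, 7.82 and 7.93 with PGC-1a4. All PGC-1a2 arrays lay below all other arrays. It fell by 0.37 (adjusted p = 0.008951), and PGC-1a2 was also below PGC-1a1, PGC-1a3 and PGC-1a4 (differences of 0.46, 0.39 and 0.37, adjusted p = 0.0009023, 0.007434 and 0.002605). The fall from GFP and the difference from PGC-1a3 were lost when only the 2 groups compared were fitted (adjusted p = 0.118 and 0.0536). Irf1, induced by interferon gamma, was 0.26 higher with PGC-1a2 and 0.24 higher with PGC-1a3 (adjusted p = 0.02558 and 0.04311). Its arrays read 5.17, 5.00 and 5.14 in GFP, 5.38, 5.31 and 5.40 with PGC-1a2 and 5.33, 5.34 and 5.36 with PGC-1a3, below the array's median throughout and without overlap with GFP. It read 4.92, 4.97 and 5.11 with PGC-1a1 and 5.13, 5.14 and 5.21 with PGC-1a4. Both calls were lost without GFP replicate 2 or 3 (adjusted p = 0.0703 and 0.056 with PGC-1a2, 0.121 and 0.0795 with PGC-1a3). They were also lost without any single array of the isoform itself (0.0695, 0.0523 and 0.0951 with PGC-1a2, 0.113, 0.118 and 0.0908 with PGC-1a3). Median centring lost both (0.0528 and 0.0742), as did the fit of only the 2 groups compared (0.194 and 0.2535). Robust variances that follow a trend lost both too (0.0917 and 0.132). Irf4, Irf5, Irf7, Irf8 and Irf9 and the corepressors Irf2bp1 and Irf2bpl were called in no comparison.

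Among the effectors, Isg20, an exonuclease that degrades viral RNA, followed an order close to that of H2-DMa. It read 7.58, 7.40 and 7.41 in GFP, 7.13, 7.0 and 6.86 with PGC-1a1 and 8.11, 8.13 and 8.08 with PGC-1a2. It read 7.70, 7.73 and 7.49 with PGC-1a3 and 6.68, 6.86 and 6.94 with PGC-1a4. PGC-1a2 was above all other groups, PGC-1a1 and PGC-1a4 were below GFP and overlapped each other, and PGC-1a3 overlapped GFP. Isg20 rose 1.56-fold with PGC-1a2 (0.64 ± 0.10, adjusted p = 0.001581) and fell by 0.64 ± 0.10 with PGC-1a4 (adjusted p = 0.0007603) and by 0.47 ± 0.10 with PGC-1a1 (adjusted p = 0.01042). PGC-1a2 and PGC-1a4 differed by 1.28 (adjusted p = 1.259e-06), while PGC-1a3 differed from GFP by 0.17 (95% interval -0.04 to 0.38). The fall with PGC-1a1 was lost without PGC-1a1 replicate 3 (adjusted p = 0.0535). Median centring and the fit of only the 2 groups compared lost it too (0.056 and 0.109).

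Isg20l2, a related nuclease that works on ribosomal RNA in the nucleolus, was highest with PGC-1a3. It read 7.85, 7.49 and 7.78 in GFP, 8.48, 8.38 and 8.11 with PGC-1a3 and 7.35, 7.06 and 7.30 with PGC-1a4, without overlap between these groups. It read 7.75, 7.68 and 7.57 with PGC-1a1 and 7.93, 8.15 and 8.11 with PGC-1a2. It rose by 0.61 with PGC-1a3 (adjusted p = 0.01073), fell by 0.47 with PGC-1a4 (adjusted p = 0.02186), and differed by 1.08 between them (adjusted p = 4.31e-05, called under all alternatives). The rise was lost without PGC-1a3 replicate 1 (adjusted p = 0.0528) and the fall without GFP replicate 1 or 3 or PGC-1a4 replicate 2 (0.0839, 0.0771 and 0.0897). Fitting only the 2 groups compared lost both (0.1515 and 0.119), and median centring lost the fall (0.0821).

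Of the IFIT proteins, which bind viral RNA, both members measured were highest with PGC-1a3. Ifit2 read 5.54, 5.20 and 5.53 in GFP and 6.21, 5.93 and 5.94 with PGC-1a3, above every other array. It read 5.54, 5.17 and 5.19 with PGC-1a1, 5.56, 5.28 and 5.56 with PGC-1a2 and 5.30, 5.45 and 5.40 with PGC-1a4. It rose 1.52-fold (0.60, adjusted p = 0.01539), a call lost without GFP replicate 2 or PGC-1a3 replicate 1 (adjusted p = 0.0504 and 0.0722). Ifit2 was also not called when only those 2 groups were fitted (0.142). PGC-1a3 was also above PGC-1a1 by 0.73 and above PGC-1a4 by 0.64 (adjusted p = 0.002757 and 0.002885, both called under all alternatives). Ifit1 read 2.94, 3.30 and 2.34 in GFP and 4.52, 3.57 and 4.41 with PGC-1a3, a difference of 1.30 (95% interval 0.50 to 2.11) with an adjusted p of 0.0516 that missed the threshold. It read 3.02, 2.38 and 2.74 with PGC-1a1, 3.10, 2.66 and 2.23 with PGC-1a2 and 2.55, 2.89 and 3.81 with PGC-1a4, and was below the lower quartile on 13 of the 15 arrays. Ifit1 was higher with PGC-1a3 than with PGC-1a1 by 1.45 and than with PGC-1a2 by 1.5 (adjusted p = 0.02071 and 0.02567). The former was lost without PGC-1a1 replicate 2 or 3 or PGC-1a3 replicate 1 or 3 (adjusted p = 0.0846, 0.0595, 0.0862 and 0.0697) and the latter without PGC-1a2 replicate 2 or 3 or PGC-1a3 replicate 1 or 3 (0.0746, 0.0984, 0.104 and 0.0726).

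Ifitm3, which blocks the entry of enveloped viruses, read 8.04, 7.76 and 8.17 in GFP and 8.58, 8.37 and 8.75 with PGC-1a4, without overlap. It rose by 0.58 (adjusted p = 0.02784), a call lost without GFP replicate 1 or 2 or PGC-1a4 replicate 1 or 3 (adjusted p = 0.0583, 0.094, 0.0756 and 0.112). Ifitm3 was also not called when only those 2 groups were fitted (0.09405). With PGC-1a2 it read 8.34, 8.40 and 8.45, above all GFP arrays, and the difference of 0.40 had an adjusted p of 0.147. It read 8.29, 7.84 and 7.83 with PGC-1a1 and 8.14, 8.26 and 7.80 with PGC-1a3, both overlapping GFP. Mx1 was lower by 0.55 with PGC-1a2 (adjusted p = 0.02418). It read 3.89, 3.60 and 3.84 in GFP and 3.37, 3.32 and 3.00 with PGC-1a2. It read 3.60, 3.54 and 3.35 with PGC-1a1, 3.59, 3.77 and 3.37 with PGC-1a3 and 3.39, 3.71 and 3.46 with PGC-1a4, below the lower quartile on all 15 arrays, and the call was lost without GFP replicate 1 or 3 or PGC-1a2 replicate 2 or 3 (adjusted p = 0.0795, 0.0846, 0.0525 and 0.104). Median centring and the fit of only the 2 groups compared lost the call too (0.0649 and 0.1255). Ifi35, which was not called against GFP, was higher with PGC-1a4 than with PGC-1a2 by 0.49 and than with PGC-1a3 by 0.54 (adjusted p = 0.003442 and 0.002039). It read 6.90, 6.85 and 7.03 with PGC-1a4, above all arrays of PGC-1a2 (6.54, 6.50 and 6.26) and PGC-1a3 (6.43, 6.54 and 6.20). It read 6.58, 6.68 and 6.85 in GFP and 6.75, 6.72 and 6.72 with PGC-1a1.

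Among the p200 genes, whose products bind DNA, Ifi203 was 0.40 higher with PGC-1a2 than with PGC-1a4 (adjusted p = 0.04237) and Ifi202b was 0.29 higher with PGC-1a1 than with PGC-1a2 (adjusted p = 0.04465). Ifi203 read 4.53, 4.73 and 4.57 with PGC-1a2 and 4.45, 3.95 and 4.24 with PGC-1a4, and between 4.35 and 4.74 on the other arrays. Ifi202b read 3.09, 2.97 and 3.08 with PGC-1a1 and 2.71, 2.89 and 2.66 with PGC-1a2, and between 2.82 and 3.13 on the other arrays, all below the lower quartile. The call of Ifi203 failed without any PGC-1a2 array or without PGC-1a4 replicate 2 or 3 (adjusted p = 0.0603, 0.149, 0.0798, 0.18 and 0.0855). That of Ifi202b failed without any PGC-1a1 array or without PGC-1a2 replicate 1 or 3 (0.128, 0.0618, 0.121, 0.123 and 0.159). None of the 7 OAS or 4 GBP members was called in any comparison.

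**Figure D3:**
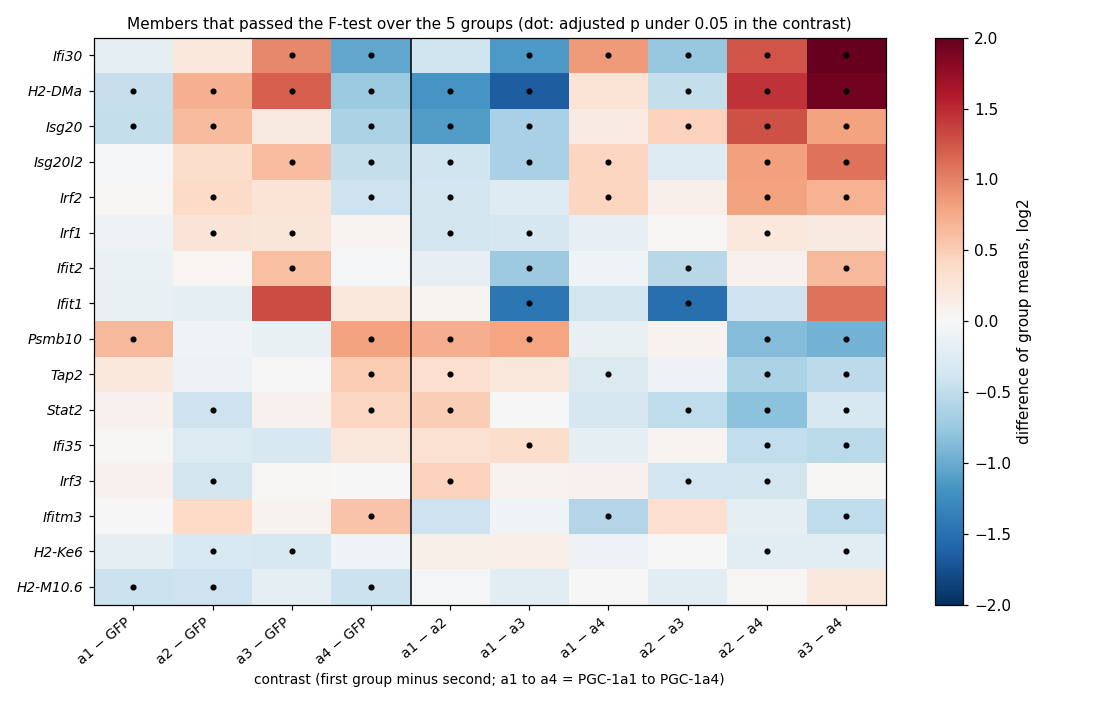
Difference of group means (log2, colour) for the 16 members that passed the F-test, over the 4 comparisons with GFP (left of the line) and the 6 pairs of isoforms, with a dot where the adjusted p was under 0.05. Ifi30, H2-DMa and Isg20l2 have their largest differences between PGC-1a3 and PGC-1a4, and Psmb10, Tap2 and Stat2 have the opposite sign there.

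PGC-1a2 and PGC-1a4 differed in 21.3% of the members, beside 25.2% of all rows and 33.1% of the genes read by 1 row each. PGC-1a3 and PGC-1a4 differed in 19.7%, beside 23% and 30.4%. These shares mix signal levels, and only 19 of the 61 members lay above the median row. Of those 19, 11 were called in each of the 2 comparisons, beside 49.3% and 45.6% of genes there. These comparisons share the PGC-1a4 arrays. Tap2 was 0.63 lower with PGC-1a2 than with PGC-1a4 and 0.52 lower with PGC-1a3 than with PGC-1a4 (adjusted p = 0.0001021 and 0.0005054). Psmb10 was 0.87 and 0.95 lower in the same comparisons (adjusted p = 1.317e-06 and 1.266e-06). Ifi30 was 0.85 higher with PGC-1a1 than with PGC-1a4 (adjusted p = 0.005502).

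Other genes of these pathways were read from lists of companions, whose counts stand beside the shares called of the 14860 genes read by 1 row each: 9.12% with PGC-1a1, 12.7% with PGC-1a2, 10.9% with PGC-1a3 and 19.1% with PGC-1a4. Among those above the median row the shares were 14.6%, 19.4%, 16.8% and 29.4% in that order. Above that median lay 14 of 19 genes of receptors and signalling and 10 of 19 sensors and adaptors. The same held for 15 of 38 other interferon-stimulated genes and 13 of 16 other genes of antigen presentation. In the list of interferon receptors and signalling, of 19 measured genes PGC-1a1 raised 0 and lowered 1, PGC-1a2 raised 1 and lowered 2, PGC-1a3 changed 0 and PGC-1a4 raised 3 and lowered 2, by the same limma test. These are 5.26%, 15.8%, 0% and 26.3% of the list, each below the share for genes above the median row. At an unadjusted p under 0.05, 5 of the 19 passed with PGC-1a3. Ifngr2, a chain of the interferon gamma receptor, fell by 0.41 with PGC-1a2 and by 0.27 with PGC-1a4 (adjusted p = 0.00232 and 0.0147), the latter call being lost without GFP replicate 3 or PGC-1a4 replicate 1 (adjusted p = 0.0532 and 0.0579). Stat3 was 0.40 higher with PGC-1a4 and Stat6 was 0.39 lower (adjusted p = 0.00547 and 0.00527). With only the 2 groups compared fitted, both calls of Ifngr2 and those of Stat3 and Stat6 were lost (adjusted p = 0.0809, 0.122, 0.113 and 0.0918). Median centring lost Ifngr2 with PGC-1a4 and Stat6 (adjusted p = 0.114 and 0.05155).

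Of 19 measured sensors and adaptors for foreign nucleic acid, 1 rose and 0 fell with PGC-1a1, 3 rose and 0 fell with PGC-1a2, the same numbers with PGC-1a3, and 3 rose and 3 fell with PGC-1a4. These are 5.26%, 15.8%, 15.8% and 31.6% of the list, the first under its background of 9.12%. Sting1, the endoplasmic reticulum adaptor for cytosolic DNA, read 8.56, 8.33 and 8.72 in GFP, 8.29, 8.05 and 8.29 with PGC-1a1 and 9.41, 9.38 and 9.44 with PGC-1a2. It read 8.97, 8.99 and 8.88 with PGC-1a3 and 7.82, 7.74 and 8.0 with PGC-1a4. The groups did not overlap, in the order PGC-1a2, PGC-1a3, GFP, PGC-1a1 and PGC-1a4. Sting1 rose by 0.87 ± 0.10 with PGC-1a2 and fell by 0.68 ± 0.10 with PGC-1a4 (adjusted p = 0.000428 and 0.000807), both called under all alternatives. It rose by 0.41 with PGC-1a3 (adjusted p = 0.0305), a call lost without GFP replicate 1 or 2 or PGC-1a3 replicate 1 or 2 (adjusted p = 0.0596, 0.0919, 0.104 and 0.104).

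Mavs, the mitochondrial adaptor for RNA sensors, followed the pattern of Psmb10. It read 9.43, 9.44 and 9.47 in GFP, 10.13, 10.06 and 10.16 with PGC-1a1 and 10.12, 10.17 and 10.15 with PGC-1a4, and all arrays of PGC-1a2 and PGC-1a3 lay at or below 9.53. It rose by 0.67 ± 0.06 with PGC-1a1 and by 0.70 ± 0.06 with PGC-1a4 (adjusted p = 5.03e-05 and 1.73e-05), both called under all alternatives. Tlr3, the endosomal receptor for double-stranded RNA, read 4.46, 4.12 and 4.82 in GFP and 5.66, 5.34 and 5.61 with PGC-1a4, without overlap. It rose by 1.07 ± 0.18 (adjusted p = 0.00175). Myd88, the adaptor of most Toll-like receptors, was 0.50 higher with PGC-1a2 and 0.34 lower with PGC-1a4 (adjusted p = 0.00423 and 0.0219), the latter call being lost without GFP replicate 1 or 3 or PGC-1a4 replicate 2 (adjusted p = 0.0741, 0.0738 and 0.0905). Both calls were lost when only the 2 groups compared were fitted (adjusted p = 0.062 and 0.129).

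**Figure D4:**
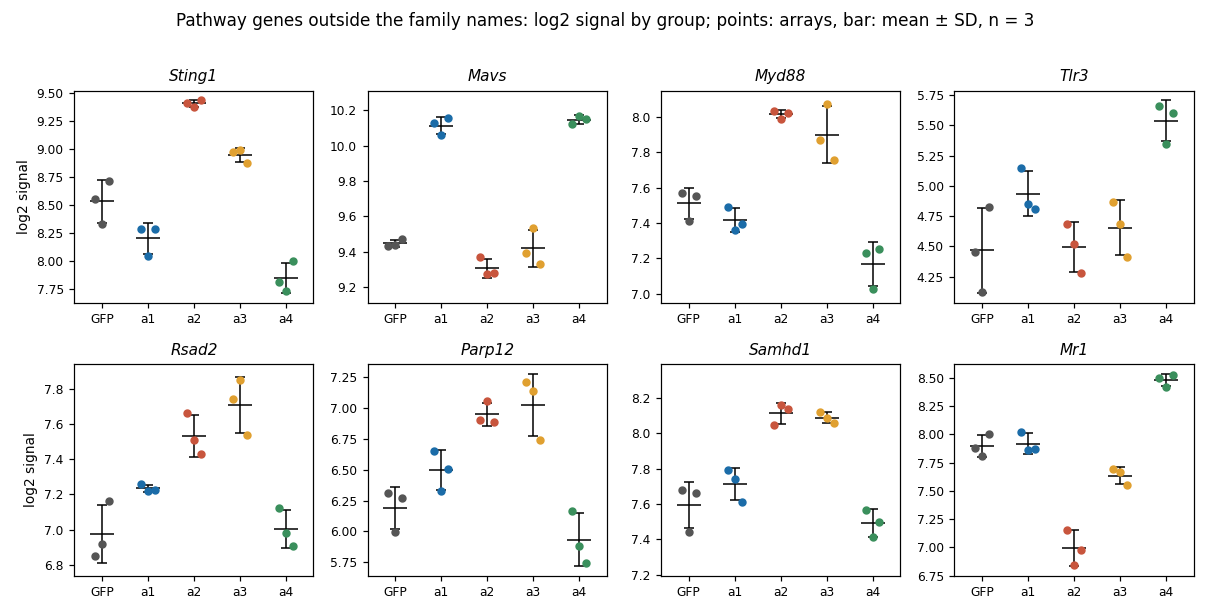
Log2 signal of 8 companion genes on each array (points), with the mean and SD of the 3 arrays per group; a1 to a4 stand for PGC-1a1 to PGC-1a4, and each panel has its own vertical scale that does not start at 0. Sting1, Myd88, Rsad2, Parp12 and Samhd1 are higher with PGC-1a2 and PGC-1a3 than with PGC-1a4, and Mavs is higher with PGC-1a1 and PGC-1a4 than in the other groups.

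Of 38 other interferon-stimulated genes measured, 0 rose and 1 fell with PGC-1a1, 4 rose and 2 fell with PGC-1a2, 6 rose and 2 fell with PGC-1a3 and 2 rose and 2 fell with PGC-1a4. These are 2.63%, 15.8%, 21.1% and 10.5% of the list, below the background with PGC-1a1 and PGC-1a4 (9.12% and 19.1%). Their median difference from GFP was -0.03, -0.01, 0.07 and -0.07 in that order. Rsad2 (viperin), an antiviral enzyme, read 6.85, 6.92 and 7.16 in GFP, 7.66, 7.51 and 7.43 with PGC-1a2 and 7.74, 7.85 and 7.54 with PGC-1a3. The isoform arrays all lay above those of GFP, and Rsad2 rose by 0.56 and 0.73 (adjusted p = 0.00546 and 0.00183). Parp12, an antiviral ADP-ribosyltransferase, rose by 0.76 and 0.83 in the same groups (adjusted p = 0.00675 and 0.00528). Samhd1, which breaks down the nucleotides viruses need, rose by 0.52 and 0.49 (adjusted p = 0.00158 and 0.00304). With PGC-1a4 these 3 genes differed from GFP by 0.03, -0.26 and -0.10, and none was called. Each of these 6 rises was lost when only the 2 groups compared were fitted.

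Of 16 other genes of antigen presentation, 0 were called with PGC-1a1, 1 rose and 2 fell with PGC-1a2, 1 rose and 1 fell with PGC-1a3, and 2 rose and 0 fell with PGC-1a4. These are 0%, 18.8%, 12.5% and 12.5% of the list, the last below its background of 19.1%. Each lay below the share for genes above the median row. At an unadjusted p under 0.05, 2 of the 16 passed with PGC-1a1. Mr1, a class I-like molecule that presents microbial vitamin metabolites, read 7.88, 7.81 and 8.0 in GFP, 7.16, 6.84 and 6.98 with PGC-1a2 and 8.50, 8.42 and 8.53 with PGC-1a4. The PGC-1a2 arrays lay below, and the PGC-1a4 arrays above, all other arrays. It fell by 0.91 ± 0.09 with PGC-1a2 and rose by 0.58 ± 0.09 with PGC-1a4 (adjusted p = 0.000107 and 0.000752), both called under all alternatives. B2m, the light chain of every class I molecule, read between 10.71 and 11.19 on all arrays. It was not called against GFP (differences of 0.03, -0.21, 0.06 and 0.08) and was 0.29 lower with PGC-1a2 than with PGC-1a4 (adjusted p = 0.0203). Of the 51 calls against GFP in the companion lists, 7 were called under all alternatives.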

How the data were processed

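The deposited table holds 1 log2 signal per row and array, made by the authors with Partek per the submitters' processing notes. No source used here gives its version, the background correction, the normalization or the genome build. The values look like log2 signals, since none is negative and array medians lie close together. Of 23332 rows, 14996 carry 1 gene symbol in the platform annotation, 1019 carry several and 7317 none, and only the first were named. For a gene with several such rows the row with the highest mean was kept. All 15 value columns matched a sample title, and 0 were left unmapped. Symbols of 60 of the 61 members matched RefSeq by gene ID.

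Group means of all 15 arrays were compared in 1 linear model with group as the only term and moderated variances (limma, version 3.58.1, under R, version 4.3.3). The two-sided p-values were adjusted by the Benjamini-Hochberg method over all rows, and a gene was called at an adjusted p under 0.05. Each ± after a difference is a standard error. An exact permutation test of 3 against 3 arrays cannot go below p = 0.1 and was not used. The script was tested on simulated data. Alternatives were quantile normalization, median centring and a filter on dim rows (above percentile 25 on at least 3 arrays). Others were a fit of only the 2 groups compared, weights per array and robust variances that follow a trend. Averaging of all rows of a gene and blocking on the replicate number were also run. Each array of the groups compared was left out in turn, and for the F-test each of the 15 arrays. Promoter windows are RefSeq's on GRCm38.p6. Members, lists, motifs and tests were chosen with earlier results of these data known. Members called in a comparison are given with their values by array, as single values or, for groups outside the comparison, in a few cases as a range. From each companion list up to 4 called genes with the smallest p per comparison could be named, and B2m and Ppargc1a in any case. Arrays have no read depth, and their number limits the precision.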

Additional observations from a re-analysis of the deposited data

How the results depend on the processing

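Of the 85 calls of members in the 10 comparisons, 42 were called under every alternative run and 43 were lost under at least 1, and none changed direction. Fitting only the 2 groups compared, which leaves fewer arrays to estimate the spread, lost 40 of the 85. Median centring lost 28, the variance trend 9, the replicate block 7, quantile normalization 2, array weights 2, the mean of a gene's rows 0 and the filter on dim rows 0 of the 78 it could test. With only the 2 groups fitted, the members called numbered 1 for PGC-1a1, 2 for PGC-1a2, 0 for PGC-1a3 and 5 for PGC-1a4 against GFP in limma, where 6, 13, 9 and 11 had an unadjusted p under 0.05. The same fit gave 1 for PGC-1a1 against PGC-1a4 and 1 for PGC-1a2 against PGC-1a3. Median centring gave 2 for PGC-1a1 and 3 for PGC-1a2 against GFP and 2 for PGC-1a1 against PGC-1a4, and the cause was not tested.

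With 1 array of the groups compared left out, the counts against GFP ran from 1 to 4 for PGC-1a1 and 4 to 8 for PGC-1a2. They ran from 2 to 6 for PGC-1a3 and 7 to 9 for PGC-1a4. Between isoforms they ran from 6 to 9 for PGC-1a1 against PGC-1a2, 7 to 9 for PGC-1a1 against PGC-1a3, 1 to 2 for PGC-1a1 against PGC-1a4, 3 to 6 for PGC-1a2 against PGC-1a3, 10 to 13 for PGC-1a2 against PGC-1a4 and 10 to 12 for PGC-1a3 against PGC-1a4. With any 1 array left out the F-test called 13 to 18. Of 30 pairs of arrays with the same replicate number, 11 correlated above 0.1 in their deviations, over a range of -0.218 to 0.36. Of the 15 arrays, 6 lay closest to their own number. Pairs of different numbers are not given beside these. Over rows below the median row, replicate 1 was lower than the other arrays of its group in all 5 groups. The medians were -0.11 in GFP and -0.08, -0.02, -0.06 and -0.08 with PGC-1a1 to PGC-1a4, while replicates 2 and 3 varied in direction. A shared culture or day was not tested. The labels do not say that the numbers mark pairs, so they were not taken as pairs. With the replicate block the count for PGC-1a1 against PGC-1a4 was 3, and the other counts stayed within 1.5 times. Another background correction could not be run from summarised signals, and the 40 members below their array's median on all arrays limit what can be read of the OAS, GBP, Mx and class I genes.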
